A study of Drosophila melanogaster with 9 samples.

Results

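The larval serum proteins and fat body proteins of Drosophila melanogaster are a small set of storage protein genes, and their transcripts were followed here in whole heads of flies kept alone or in a group. The set held 6 genes of 17490 in the deposited counts: Lsp1alpha, Lsp1beta, Lsp1gamma, Lsp2, Fbp1 and Fbp2, picked by their FlyBase identifiers. They were picked with their differences between the housing groups in view, so those differences are given as a description. Their p-values are not printed, and whether they passed a threshold is a description too, not independent support.

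Larval serum proteins are hexamerins, relatives of the oxygen carrier hemocyanin that have lost the copper-binding function and serve as amino acid stores. The fat body, the insect counterpart of liver and adipose tissue, makes them in feeding larvae under ecdysone control and secretes them into the hemolymph. Before pupation the fat body takes them up again, with Fbp1 acting as the receptor for the LSP1 protein, and keeps them in granules that are used up while the adult is built. Lsp1alpha, Lsp1beta and Lsp1gamma encode the subunits of LSP1, Lsp2 encodes the subunit of a separate hexamer, and Fbp2 encodes a protein related to alcohol dehydrogenase. Lsp2 is known to be transcribed in the adult fat body as well, part of which lies in the head.

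All flies carried 1 genotype, labelled wild type Canton-S w1118 (iso1CJ). They had been alone for 7 days, alone for 1 day, or in a group for 7 days, with 3 samples of 200 heads for each condition, taken at zeitgeber time 0.5 to 2, shortly after lights on. The labels give neither sex nor age, so whether the groups were matched in them is not known. They also do not say whether flies alone for 1 day had been in a group before, so any difference of that condition from the group may include one in age or earlier housing. The heads of many flies were pooled in each sample. Nothing says that the samples came from separate cultures, so the tests measure the spread between these samples, which may be partly technical. Library totals were 39698143 to 53514747 counts. Levels are in CPM, a gene's counts scaled to a common library total after TMM normalization.

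The members lie apart in the genome, in BDGP6 coordinates. Lsp1alpha (FBgn0002562) spans chromosome X from 12490291 to 12492982, Lsp1beta (FBgn0002563) spans 2L from 898500 to 901316, and Lsp1gamma (FBgn0002564) spans 3L from 66430 to 68995. These 3 genes are all on the plus strand and share a layout of 2 exons split by a single short intron, of 67 bases in Lsp1alpha, 68 in Lsp1beta and 65 in Lsp1gamma. Their coding regions hold 816, 789 and 772 codons in the same order. Lsp2 (FBgn0002565), on the plus strand of 3L from 12129393 to 12131869, has no intron and 701 codons. Fbp1 (FBgn0000639) lies on the minus strand of 3L from 14094589 to 14098053 and is the longest member, with 1029 codons and an intron of 60 bases. Fbp2 (FBgn0000640), on the plus strand of 2L from 9426784 to 9427917, is the shortest, with 256 codons and an intron of 60 bases.

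Some head samples held RNA of the rest of the body. Markers of gut and male tract summed to 654 to 1453 CPM in 5 libraries, against 12.7 to 16.9 CPM elsewhere. The 5 libraries were replicates 1 and 3 of 7 days alone, replicates 1 and 2 of 1 day alone and replicate 2 of the group. Library 1 of 1 day alone also stood apart in the yolk protein gene Yp1, at 419 CPM against 2.86 to 21.2 CPM in the other 8. Results for the storage protein genes are therefore also given within the libraries with and without such tissue.

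Lsp2 was by far the most abundant member. It reached 2098, 2452 and 2071 CPM in heads of flies alone for 7 days, 1490, 1229 and 1514 CPM after 1 day alone, and 1312, 1009 and 1186 CPM in the group. Every library of 7 days alone lay above every library of the other conditions, while 1 day alone and group overlapped. The means were 2207 ± 213, 1411 ± 158 and 1169 ± 152 CPM (SD, n = 3 each), in the order 7 days alone, 1 day alone, group. Lsp2 alone made up 0.219% of all counts after 7 days alone, 0.144% after 1 day alone and 0.116% in the group. Per kilobase of exon it ranked 56, 121 and 158 among the 17490 genes in these conditions. The next member, Lsp1beta, ranked 1481, 2080 and 1370 on that scale.

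Lsp1beta, the subunit gene with the highest level within LSP1, ran far below Lsp2 and had another order. It stood at 108, 166 and 154 CPM after 7 days alone, 99.3, 101 and 108 CPM after 1 day alone, and 156, 148 and 160 CPM in the group. The 3 libraries of 1 day alone were the lowest, and the lowest library of 7 days alone, replicate 1, was level with the highest of them. The means were 143 ± 30.6 CPM after 7 days alone, 103 ± 4.60 CPM after 1 day alone and 154 ± 5.98 CPM in the group (SD, n = 3 each). Replicate 1 accounted for most of the spread after 7 days alone, and the libraries of that condition reached both above and below those of the group.

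Lsp1alpha varied over the widest fold range of the 5 members with counts in every library. Its counts were 617, 993 and 863 after 7 days alone, 51, 41 and 40 after 1 day alone, and 656, 521 and 497 in the group. In CPM these are 11.7, 21.5 and 18.6 after 7 days alone, 1.28, 0.986 and 0.928 after 1 day alone, and 12.4, 9.77 and 9.99 in the group. All 3 libraries of 1 day alone were far below all the others, and 7 days alone overlapped with the group in replicate 1. The means were 17.3 ± 5.0 CPM after 7 days alone, 1.06 ± 0.186 CPM after 1 day alone and 10.7 ± 1.43 CPM in the group (SD, n = 3 each). In bulk samples, fewer cells that use the gene and less RNA per cell cannot be told apart.

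**Figure D1:**
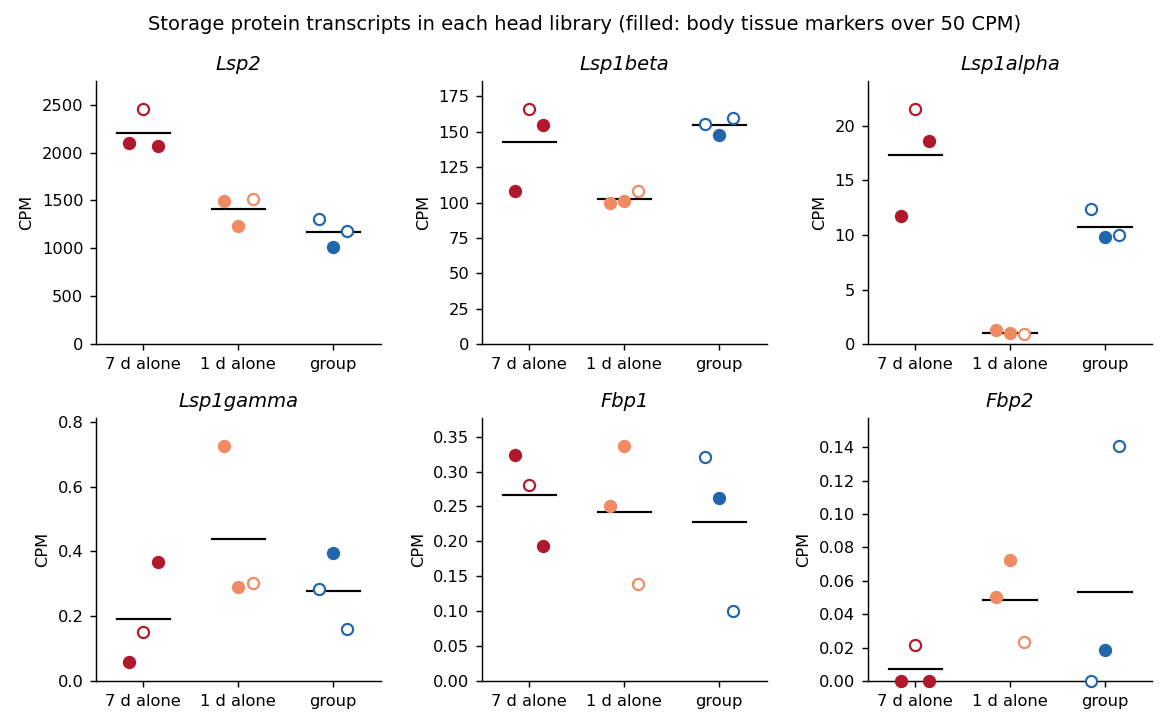
Level of each member (CPM, linear axes that start at 0) in the 3 libraries of each condition, from left to right 7 days alone, 1 day alone and group. Points are libraries, bars are means, and filled points are libraries with gut and male tract markers over 50 CPM. Lsp2 is highest after 7 days alone, Lsp1alpha lies at 0.928 to 1.28 CPM in the 3 libraries of 1 day alone, and the lower row holds genes with under 1 CPM in every library.

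The remaining LSP1 subunit gene, Lsp1gamma, was close to the limit of the depth. It had 3, 7 and 17 counts after 7 days alone, 29, 12 and 13 after 1 day alone, and 15, 21 and 8 in the group. The group overlapped with both isolated conditions, while 2 of 3 libraries of 7 days alone lay below every library of 1 day alone. The highest level, in replicate 1 of 1 day alone, was 0.726 CPM. Fbp1, the receptor gene, had 17, 13 and 9 counts after 7 days alone, 10, 14 and 6 after 1 day alone, and 17, 14 and 5 in the group, or 0.101 to 0.337 CPM over the 9 libraries. The conditions overlapped in Fbp1 too. Fbp2 had 0, 1 and 0 counts after 7 days alone, 2, 3 and 1 after 1 day alone, and 0, 1 and 7 in the group. Its zeros allow up to 0.0571 and 0.0646 CPM in replicates 1 and 3 of 7 days alone and up to 0.0565 CPM in replicate 1 of the group, which covers counting error only. Fbp2 was the only member that the filter on low counts removed, so 5 members were tested. For Lsp1gamma, Fbp1 and Fbp2, differences between conditions were not detectable at this depth.

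The make-up of the LSP1 transcripts differed between the conditions. Per kilobase, Lsp1alpha supplied 10.2%, 11.9% and 11.2% of the summed level of Lsp1alpha, Lsp1beta and Lsp1gamma after 7 days alone, 1.32%, 1.01% and 0.889% after 1 day alone, and 7.66%, 6.45% and 6.14% in the group. The 3 conditions did not overlap in this share, whose means were 11.1 ± 0.862%, 1.07 ± 0.221% and 6.75 ± 0.803% (SD, n = 3 each) in the same order. Lsp1beta supplied 88.0% or more of the sum in every library, and Lsp1gamma at most 0.786%. Because the LSP1 genes are relatives, reads that match more than 1 of them are a concern, and the handling of such reads is not given in the sources used here. What such reads add to these shares was not tested.

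The ratio of Lsp2 to Lsp1beta transcripts followed another order. Per kilobase, the level of Lsp2 was 21.6, 16.4 and 14.9 times that of Lsp1beta after 7 days alone, 16.6, 13.5 and 15.6 times after 1 day alone, and 9.35, 7.57 and 8.24 times in the group. Every library of isolated flies, after 7 days or 1 day, lay above every library of the group. The mean ratios were 17.6 ± 3.50 after 7 days alone, 15.2 ± 1.59 after 1 day alone and 8.39 ± 0.898 in the group (SD, n = 3 each). The highest ratio, in replicate 1 of 7 days alone, came from the library with the lowest Lsp1beta of that condition.

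**Figure D2:**
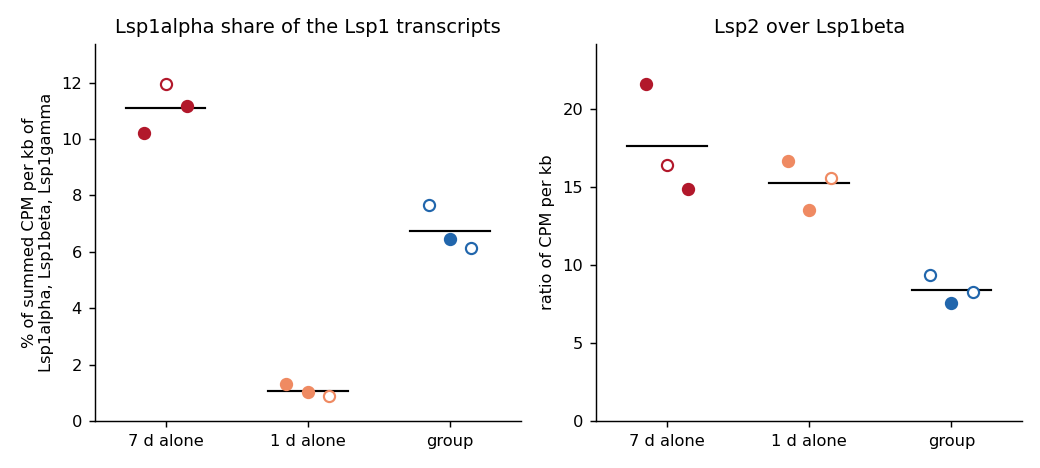
Left, share of Lsp1alpha in the summed CPM per kilobase of the LSP1 subunit genes (%). Right, ratio of Lsp2 to Lsp1beta in CPM per kilobase. Points are libraries (filled with body tissue markers over 50 CPM), bars are means, and the conditions run 7 days alone, 1 day alone, group. The share is 0.889% to 1.32% after 1 day alone, and the ratio is at least 13.5 in all isolated libraries and at most 9.35 in the group.

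The housing comparisons were fitted across all 12963 genes that passed the filter, with edgeR's quasi-likelihood test. At 7 days alone against group, Lsp2 had a log2 fold change of 0.92 (SE 0.13), Lsp1alpha 0.69 (SE 0.24), Lsp1beta -0.11 (SE 0.14), Lsp1gamma -0.54 (SE 0.74) and Fbp1 0.22 (SE 0.55). None of the 5 members passed an adjusted p of 0.05, in a comparison where 0.301% of all genes did and 825 genes had an unadjusted p under 0.05. With a term for body tissue the log2 fold change of Lsp2 was 1.00 (SE 0.090) and 1 member, Lsp2, passed, beside 1.10% of all genes. DESeq2 and limma-voom, which called 328 and 52 genes, also called Lsp2. Fits with RLE factors, no filter on low counts, a replicate block or only the libraries compared did not. Of the 9 fits that left out 1 library, only that without replicate 3 of 1 day alone called it. Lsp2 was the only one of the 5 members with no overlap between these groups and higher levels after isolation, as were 7.00% of all genes.

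At 1 day alone against group, the log2 fold change of Lsp1alpha was -3.33 (SE 0.26), a level 10.04-fold lower. Lsp1beta stood at -0.59 (SE 0.14), Lsp2 at 0.27 (SE 0.13), Lsp1gamma at 0.65 (SE 0.73) and Fbp1 at 0.09 (SE 0.55). A single member of 5, Lsp1alpha, passed the threshold, and it was lower, as were 2.71% of all genes (3.96% in either direction). Lsp1alpha and Lsp1beta were lower without overlap, as were 15.1% of all genes. With the body tissue term 2 members passed, Lsp1alpha and Lsp1beta, beside 5.62% of all genes. No member was called by limma-voom, which called 549 genes.

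At 7 days against 1 day alone, the log2 fold change of Lsp1alpha was 4.02 (SE 0.27), or 16.2-fold, with 0.65 (SE 0.13) for Lsp2, 0.47 (SE 0.14) for Lsp1beta, -1.19 (SE 0.75) for Lsp1gamma and 0.14 (SE 0.55) for Fbp1. Lsp1alpha and Lsp2 passed the threshold and were higher, as were 3.11% of all genes (4.62% in either direction). Without overlap, 3 members were higher, Lsp1alpha, Lsp2 and Lsp1beta, as were 12.9% of all genes; for Lsp1beta the gap was only that between 108.01 CPM after 7 days and 107.99 CPM after 1 day. The call of Lsp2 was lost in 8 of the 9 fits that left out 1 library, all but that without replicate 3 of 1 day alone, at log2 fold changes of 0.51 to 0.67 over the 9. Lsp1alpha kept its call in all 9, at 3.78 to 4.15. But limma-voom, which called 597 genes, called Lsp2 and not Lsp1alpha. With the body tissue term 2 members were called, Lsp1alpha and Lsp2, beside 6.90% of all genes. The comparisons share libraries, so their values are not independent of each other.

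**Figure D3:**
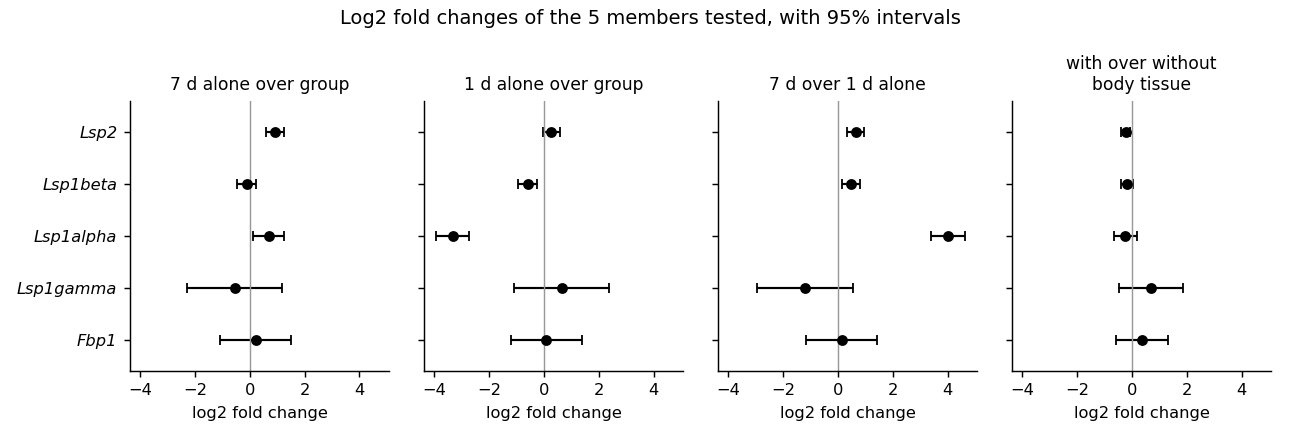
Log2 fold changes of the 5 members tested, with 95% intervals, for 7 days alone over group, 1 day alone over group, 7 days over 1 day alone, and libraries with over without body tissue. Lsp1alpha is at -3.33 in the second panel and 4.02 in the third. Lsp2 is at 0.92 in the first, and the intervals of Lsp1gamma and Fbp1 span 0 in every panel.

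Ratios of mean CPM were also taken within the libraries that held body tissue and within those that did not, over 1 or 2 libraries a condition. Lsp2 was 2.06 times as high after 7 days alone as in the group with body tissue and 1.96 times without it. For Lsp1alpha, 1 day alone was 8.63-fold lower than the group with body tissue and 12.0-fold lower without it, and 7 days alone was 13.4 times 1 day alone with body tissue and 23.2 times without. For Lsp1beta, 1 day alone was 1.48-fold lower than the group with body tissue and 1.46-fold lower without it. Lsp1beta at 7 days alone was 0.887 times the group level with body tissue and 1.05 times without it, so it had no set direction there.

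Body tissue was also compared, for members chosen with earlier results of these data known. Libraries with it differed from those without it in 23.0% of all genes (edgeR quasi-likelihood test, group as the other term), and in 0 of the 5 members tested. Of these members 1 had an unadjusted p under 0.05, a count for which the share over all genes was not taken. Lsp2 had a log2 fold change of -0.23 with body tissue (95% interval -0.40 to -0.06, adjusted p = 0.0557), close to the threshold. It was called lower in 4 of 5 other settings, but in only 2 of 9 fits that left out 1 library. The intervals were -0.66 to 0.17 for Lsp1alpha (adjusted p = 0.425) and -0.41 to 0.05 for Lsp1beta (adjusted p = 0.288). Lsp1gamma, at 0.69 (-0.49 to 1.87, adjusted p = 0.432), and Fbp1, at 0.36 (-0.58 to 1.30, adjusted p = 0.623), had wide intervals.

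Markers of other tissues were read beside the members. Larval and pupal markers (salivary glue, larval cuticle and ecdysone-induced puff genes) were near 0, with 4 of 15 at 0 counts in all libraries, and their sum was 1.62 to 2.67 CPM after 7 days alone, 1.37 to 3.03 CPM after 1 day alone and 2.57 to 2.73 CPM in the group. Hemocyte markers summed to 481 to 513 CPM, 432 to 465 CPM and 447 to 550 CPM in that order, and 6 of 6 were detected. Of the hemocyte markers only Sr-CI, a scavenger receptor gene, passed the test, at a log2 fold change of 0.30 (SE 0.059) at 7 days against 1 day alone (edgeR adjusted p = 0.0377). Sr-CI was named after its value was seen, and whether its call held without 1 library was not tested. Head tissue markers (neuronal, glial and photoreceptor genes) summed to 41410 to 44491 CPM after 7 days alone, 35825 to 40741 CPM after 1 day alone and 45617 to 45852 CPM in the group. The fat body markers were 14 genes of secreted and lipid proteins. Their sums were 11950 to 14249 CPM, 10692 to 12008 CPM and 12293 to 14082 CPM in the same order. The sums of 1 day alone lay below the group, and only replicate 1 overlapped 7 days alone. That library's 12008 CPM included Yp1, Yp2 and Yp3 at 419, 308 and 473 CPM, against at most 21.2, 11.8 and 61.2 CPM in the others. Replicates 2 and 3 of 1 day alone, at 10692 and 10987 CPM, lay below every library of 7 days alone. Most of the sum came from apolpp, Tsf1 and FASN1, which averaged 5019, 2956 and 2422 CPM over the 9 libraries. Genes of the list did not all go with the sum. Tsf1 averaged 3493 CPM in the group and 2204 CPM after 1 day alone, while Col4a1 went from 217 to 350 CPM and fit from 20.5 to 70.9 CPM. Oenocyte markers summed to 548 to 1702 CPM in the libraries with body tissue and to 4.35 to 4.69 CPM in the others, and female tract markers to 1.40 to 2.53 CPM in all 9. Across all genes the log2 fold change was lower for longer exons at 1 day alone against group (Spearman -0.407). The value was -0.266 at 7 days alone against group and 0.129 at 7 days against 1 day alone. The 5 members tested are 2477 to 3465 bases long against a median of 1782. The part of fat body content and of gene length in the members' differences was not tested.

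**Figure D4:**
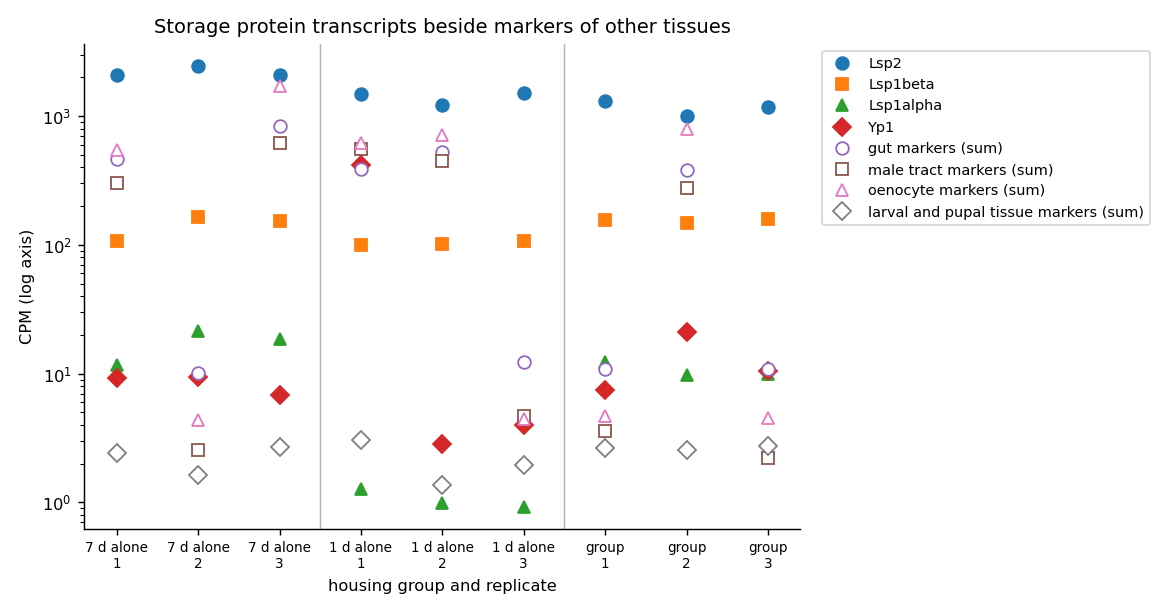
Levels of Lsp2, Lsp1beta, Lsp1alpha and Yp1 (filled) and summed levels of marker lists (open) in the 9 libraries, in CPM on a log axis. Libraries run from left to right as 7 days alone, 1 day alone and group, replicates 1 to 3. Gut, male tract and oenocyte markers are high in 5 libraries, larval and pupal markers stay at or below 3.03 CPM, and Yp1 is at 419 CPM in replicate 1 of 1 day alone.

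Genes that overlap or adjoin the members were also read. The exon of Lsp2 overlaps asRNA:CR11538, a noncoding gene on the other strand, which had 450, 829 and 1299 counts after 7 days alone, 139, 158 and 183 after 1 day alone, and 269, 309 and 224 in the group. That is 0.233 to 1.35 counts per 100 counts of Lsp2, and since the strand setting of the counting is not given, reads of the pair cannot be told apart with certainty. Fbp2 overlaps CG42847 on its own strand, which had 149 to 279 counts in the 5 libraries with body tissue and 0 or 1 in the others. On each side of a member, the closest protein-coding gene without overlap was taken. Those tested beside Lsp1alpha, Lsp1beta and Lsp2 did not pass in any housing comparison. Mks1, beside Lsp1alpha, was removed by the filter on low counts and was not tested. DEF8, 276 bases from Lsp2, had a log2 fold change of 0.03 (SE 0.071) at 7 days alone against group. Cpr11A, 842 bases from Lsp1alpha, had 1.17 (SE 0.60) at 1 day alone against group and -1.99 (SE 0.62) at 7 days against 1 day alone. CG8100, 8167 bases from Fbp1, was the one closest protein-coding gene among those tested that passed, at 1.67 (SE 0.28) at 7 days against 1 day alone (edgeR adjusted p = 0.0194). CG8100 was named after its value was seen, and whether its call held without 1 library was not tested.

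The genes whose log2 CPM was most like that of each member over the 9 libraries are given as a description, with Pearson's r. For Lsp1alpha they were UGP, the UTP-glucose-1-phosphate uridylyltransferase gene of glycogen synthesis (r = 0.995), Srr, the serine racemase gene (0.990), and Nepl18, a neprilysin-like gene (0.985). UGP averaged 564 ± 28.9 CPM after 7 days alone, 398 ± 10.6 CPM after 1 day alone and 520 ± 14.7 CPM in the group (SD, n = 3 each), the order of Lsp1alpha over a much narrower range. For Lsp1beta they were CG41520 (0.967), lncRNA:CR43989 (0.967) and CG42792 (0.966). For Lsp2 they were CG15093 (0.973), AsnS (0.953), the asparagine synthetase gene, and CG5973 (0.946). AsnS averaged 162 ± 26.4 CPM after 7 days alone, 114 ± 12.0 CPM after 1 day alone and 99.5 ± 9.34 CPM in the group (SD, n = 3 each). These 9 points fall into 3 conditions, so a difference between conditions alone can give such an r.

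Other genes around storage proteins came from 6 lists, 62 genes in all, of which 60 were tested. At 7 days alone against group 1 rose and 0 fell, or 1.67% of the 60. At 1 day alone against group 2 rose and 3 fell (8.33%), and at 7 days against 1 day alone 3 were higher and 3 lower. These counts stand beside 0.301%, 3.96% and 4.62% of all genes in the same comparisons. Without replicate 3 of 7 days alone they were 0, 1 and 0. The lists were written with earlier results of these data known. Their counts, and the p-values of their genes below, are therefore a description and not independent support.

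Among the 14 fat body secreted and lipid proteins, 1 rose at 7 days and 2 rose and 3 fell at 1 day against group, and 3 were higher and 1 lower at 7 days against 1 day alone. The median log2 fold changes of the list were -0.04, -0.08 and 0.09, against 0.01, 0.03 and 0.04 over all genes. The gene that rose against group at both times was fit, a fat body gene with female-biased expression and a role in satiety. It stood at 58.9, 61.2 and 56.0 CPM after 7 days alone, 90.6, 56.4 and 65.7 CPM after 1 day alone, and 22.5, 19.0 and 19.9 CPM in the group, with no overlap between isolated and group libraries. Its log2 fold change was 1.52 (SE 0.17, edgeR adjusted p = 0.017) at 7 days alone, past the threshold in 3 of 9 fits without 1 library. At 1 day alone it was 1.79 (SE 0.17, edgeR adjusted p = 0.00332), past it in 9 of 9.

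Other fat body genes moved at 1 day alone, several of them in the direction of Lsp1alpha and Lsp1beta. Lsd-2, which encodes a lipid droplet perilipin, fell to 387 ± 21.7 CPM after 1 day alone, against 567 ± 27.5 CPM in the group (SD, n = 3 each), a log2 fold change of -0.55 (SE 0.065, edgeR adjusted p = 0.00563). Tsf1, which encodes the iron-binding protein transferrin, fell to 2204 ± 147 CPM after 1 day alone, against 3493 ± 263 CPM in the group, at -0.66 (SE 0.11, edgeR adjusted p = 0.0238). That call of Tsf1 held in 2 of 9 fits without 1 library. AkhR, the receptor gene of adipokinetic hormone, fell by 0.46 on the log2 scale (SE 0.072, edgeR adjusted p = 0.0164), a call that held in 4 of 9. Col4a1, a collagen IV gene made in fat body and hemocytes, went the other way and rose by 0.69 (SE 0.099, edgeR adjusted p = 0.0123), a call that held in 6 of 9.

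Between 7 days and 1 day alone, Lsd-2 (0.48, SE 0.065, edgeR adjusted p = 0.0105), Tsf1 (0.53, SE 0.11, edgeR adjusted p = 0.0484) and Mtp (0.47, SE 0.069, edgeR adjusted p = 0.0135) were higher after 7 days on the log2 scale. Mtp encodes the microsomal triglyceride transfer protein of lipoprotein assembly and averaged 130 ± 9.33 CPM after 7 days alone, 93.6 ± 5.34 CPM after 1 day alone and 102 ± 5.75 CPM in the group. Col4a1 was lower after 7 days (-0.66, SE 0.099, edgeR adjusted p = 0.0145). The call of Tsf1 in this comparison held in only 1 of 9 fits without 1 library, and those of Lsd-2, Mtp and Col4a1 held in 7, 6 and 6. The yolk protein gene Yp1, made in female fat body, had log2 fold changes of -0.62 (SE 1.6) at 7 days and 3.44 (SE 1.8) at 1 day against group, and the second of these was -1.87 without replicate 1 of 1 day alone. That library held 1.28 CPM of Lsp1alpha beside 0.986 and 0.928 CPM in the other libraries of that condition.

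**Figure D5:**
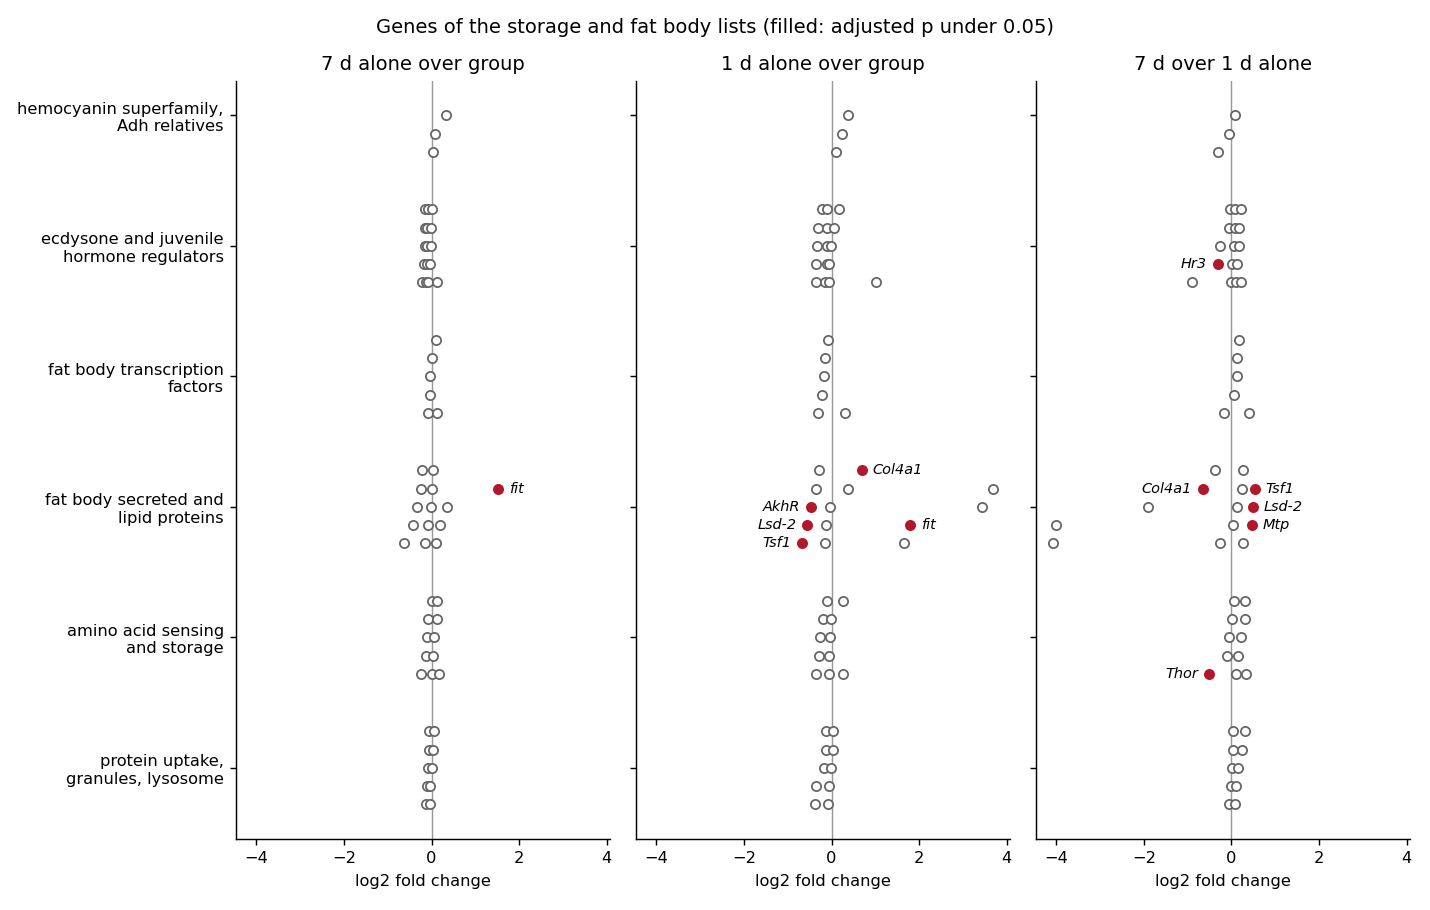
Log2 fold changes of the genes in 6 lists around storage proteins (rows), for 7 days alone over group, 1 day alone over group and 7 days over 1 day alone. Each point is a gene, and filled named points passed an adjusted p of 0.05 over all genes. Most filled points belong to the list of fat body secreted and lipid proteins, with 1, 5 and 4 of them in the panels from left to right.

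The ecdysone and juvenile hormone regulators, 16 genes that include the factors driving storage protein genes in larvae, had 0 calls against group at 7 days and at 1 day (1 and 3 genes with an unadjusted p under 0.05). Their median log2 fold changes were -0.10, -0.10 and 0.07 in the comparisons from 7 days against group onwards. At 7 days against 1 day alone 1 was lower: Hr3, a nuclear receptor gene induced by ecdysone, at -0.32 (SE 0.062, edgeR adjusted p = 0.034, a call that held in 4 of 9 fits without 1 library). EcR, the ecdysone receptor gene, averaged 54.0 ± 7.14 CPM after 7 days alone, 54.8 ± 13.4 CPM after 1 day alone and 58.5 ± 1.80 CPM in the group (SD, n = 3 each). Its log2 fold changes against group were -0.12 (SE 0.18) at 7 days and -0.09 (SE 0.18) at 1 day. None of the 6 fat body transcription factors passed the test in any housing comparison, with 0, 0 and 1 at an unadjusted p under 0.05 and medians of -0.01, -0.16 and 0.13. Of all 12963 genes tested, 825, 2401 and 2261 had an unadjusted p under 0.05 in the same comparisons, so the counts of both lists are no signal by themselves.

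In the list of amino acid sensing and storage, 11 genes of transport, TOR signalling and fat body signals, the single call was Thor, and the medians were 0.02, -0.07 and 0.09. Thor encodes 4E-BP, a translation inhibitor that TOR holds in check, and averaged 177 ± 15.9 CPM after 7 days alone, 251 ± 29.7 CPM after 1 day alone and 210 ± 8.23 CPM in the group (SD, n = 3 each). It was lower at 7 days against 1 day alone by -0.51 on the log2 scale (SE 0.096, edgeR adjusted p = 0.0316), in 3 of 9 fits without 1 library. None of the 10 genes of protein uptake, granules and lysosome passed the test, with 1, 3 and 1 genes at an unadjusted p under 0.05 and medians of -0.05, -0.11 and 0.05 in the same order of comparisons. At that unadjusted level were 825, 2401 and 2261 of all 12963 genes tested.

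The relatives of the members by descent were measured for comparison. PPO1 and PPO2, prophenoloxidases of the hemocyanin superfamily that keep the copper and act in melanization, averaged 152 ± 23.2 and 128 ± 18.4 CPM after 7 days alone, 158 ± 21.1 and 159 ± 19.6 CPM after 1 day alone, and 148 ± 19.6 and 122 ± 14.8 CPM in the group (SD, n = 3 each). Against group, the log2 fold changes of PPO1 were 0.04 (SE 0.15) at 7 days and 0.10 (SE 0.15) at 1 day, and those of PPO2 were 0.075 (SE 0.14) and 0.39 (SE 0.14), none past the threshold. PPO3 stood at 0.0402 to 0.300 CPM and was not tested. Adh, the relative of Fbp2, averaged 7.54 ± 1.05 CPM after 7 days alone, 7.11 ± 1.37 CPM after 1 day alone and 6.0 ± 0.743 CPM in the group (SD, n = 3 each), with log2 fold changes against group of 0.33 (SE 0.18) and 0.25 (SE 0.18) that did not pass.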

How the data were processed

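Libraries of whole-head RNA were made with a stranded mRNA kit (TruSeq, LT version), which marks the strand. The authors used bcl2fastq 2.20, STAR 2.4.2a and featureCounts, per the submitters' processing notes. Not given in the sources used here are the version of featureCounts, its settings for strand and multi-mapping reads, and the genome build. The authors deposited raw counts of reads, as whole numbers for each gene in each library, and each gene's summed exon length in bases. The BDGP6 annotation of Ensembl gave symbols to 17288 of 17490 genes and matched the span of 17144.

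The test was that of edgeR 4.0.16, run under R 4.3.3 on the counts of all 9 libraries (filterByExpr by group, TMM, quasi-likelihood test, group as the only term, 12963 genes). Calls are two-sided at a Benjamini-Hochberg adjusted p under 0.05 over all genes, with no minimum fold change. SE was taken as the size of the log2 fold change over the square root of the F statistic. CPM use the TMM factors, and CPM per kilobase divide them by exon length. Body tissue was called where gut and male tract markers summed to over 50 CPM before TMM scaling. Floors are 3 counts. Alternatives were RLE factors, no filter, DESeq2 1.42.0, limma-voom (limma 3.58.1), a replicate block, a body tissue term, only the libraries compared, and leaving out each library. Fits on each of the classes of libraries, with body tissue or without, were added after seeing the data.

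Named were all members, the 3 genes with the highest Pearson r (log2 CPM, prior count 2) to each member averaging at least 1 CPM, called genes of 6 lists (up to 6 a list, in order of p), and PPO1, PPO2, PPO3, Adh, EcR and Yp1 whatever their values. The markers and genes beside the members, such as Sr-CI, CG8100, DEF8 and Cpr11A, were named after their values were seen. The members, lists and markers were chosen with earlier results of these data known. The fit was tested on simulated counts. Figures were drawn with matplotlib 3.10.9.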

Additional observations from a re-analysis of the deposited data

Results flagged for a closer look

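The results below were picked out because the effect of isolation against group at 7 days differed from that at 1 day. Since both share the group libraries, this difference is the comparison of 7 days with 1 day alone, and each value is a log2 fold change at 7 days minus that at 1 day. For the members it was 4.02 for Lsp1alpha (0.69 at 7 days and -3.33 at 1 day) and 0.65 for Lsp2 (0.92 and 0.27). These genes were chosen with this contrast known, so the values are a description.

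In the lists around storage proteins the difference was 0.48 for Lsd-2 (-0.07 at 7 days and -0.55 at 1 day), 0.53 for Tsf1 (-0.14 and -0.66) and 0.47 for Mtp (0.35 and -0.12). It was -0.66 for Col4a1 (0.03 at 7 days and 0.69 at 1 day), -0.51 for Thor (-0.25 and 0.26) and -0.32 for Hr3 (-0.14 and 0.18). With a body tissue term the differences of these genes were 0.48, 0.53, 0.47, -0.66, -0.50 and -0.32 in that order.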

How the results depend on the processing

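The members' log2 fold changes moved by less than the spread between replicates in 178 of 180 values from fits without 1 library and in 130 of 130 from other planned fits, though those of Fbp1, and of Lsp1beta at 7 days against group, crossed 0 in some. Both exceptions were Lsp1gamma without replicate 3 of 7 days alone (-1.40 at 7 days against group, -2.05 at 7 days against 1 day alone). With 3 libraries a condition, leaving out 1 can hardly move a mean by more than that spread. The 178 of 180 therefore say little about how stable the values are. Counts of calls moved more. At 7 days against group, 39 genes were called in the main fit, 328 by DESeq2, 142 with a body tissue term, 64 with only the libraries compared and 3 to 193 without 1 library. At 1 day against group the counts were 513 in the main fit, 1575 by DESeq2, 133 with only the libraries compared and 137 to 881 without 1 library. At 7 days against 1 day alone they were 599, 1505, 32 and 72 to 1167 in that order, and 348 with no filter. The limma-voom fit called 52, 549 and 597 genes in the 3 comparisons, in the order given here. Libraries with against without body tissue gave 2980, and 2812 to 4305 without 1 library. Members called at 7 days against group were 0, and 1 (Lsp2) by DESeq2, by limma-voom and with the body tissue term (0 to 1 without 1 library). At 1 day against group 1 was called, and 2 (with Lsp1beta) by DESeq2, with the body tissue term and with only the libraries compared, and 0 by limma-voom (1 to 2 without 1 library). At 7 days against 1 day alone 2 were called, and 3 (with Lsp1beta) by DESeq2, 1 (Lsp1alpha) with no filter and with only the libraries compared, and 1 (Lsp2) by limma-voom (1 to 2 without 1 library). For body tissue 0 were called, and 1 (Lsp2) with RLE factors, with no filter, by DESeq2 and by limma-voom (0 to 2 without 1 library). List genes called were 1 at 7 days against group (DESeq2 3, body tissue term 3, 0 to 3 without 1 library), 5 at 1 day against group (DESeq2 13, only the libraries compared 2, 1 to 7 without 1 library) and 6 at 7 days against 1 day alone (DESeq2 11, only the libraries compared 0, 0 to 8 without 1 library). The cause of these shifts was not tested. Of the list genes named, those below the threshold changed sign as follows. Without 1 library the range was -0.15 to 0.18 for Adh, -0.041 to 0.025 for AkhR, -0.27 to 0.12 for EcR and -4.68 to 1.23 for Yp1 at 7 days against 1 day alone, -0.23 to 0.15 for EcR, -0.029 to 0.24 for PPO1 and -1.87 to 4.04 for Yp1 at 1 day against group, and -0.090 to 0.085 for Col4a1, -0.12 to 0.14 for PPO1 and -0.071 to 0.17 for PPO2 at 7 days against group. At 7 days against group Col4a1 was at -0.0015 with no filter, and at 7 days against 1 day alone EcR was at 0.0017 by limma-voom. With body tissue only, Adh was at -0.0030 at 7 days against 1 day alone and EcR at 0.12 at 1 day against group. Without it, values were -0.019 for AkhR, 0.55 for EcR, 0.22 for PPO1 and 1.21 for Yp1 at 7 days against 1 day alone, -0.17 for PPO1 and -1.15 for Yp1 at 1 day against group and 0.056 for Yp1 at 7 days against group.

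No pairing by replicate number was found: over 9986 genes with no body effect of 0.5 log2 units, equally numbered libraries correlated at r = -0.233 to 0.0424. Differently numbered libraries of different conditions correlated at r = -0.189 to 0.236. With a replicate block, 0, 162 and 126 genes were called at 7 days against group, 1 day against group and 7 days against 1 day alone, with 0, 1 and 1 members and 0, 1 and 0 list genes. Depth limits Lsp1gamma, Fbp1 and Fbp2, which had 29 counts or fewer in every library.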
